A study of Mus musculus with 2 samples.

Results

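The cells described here are GABAergic neurons of the E14 mouse trunk and limbs, caught in a sort for a muscle-lineage reporter. They were selected on measured values, namely raw UMI counts (unique molecular identifiers, each standing for a captured RNA molecule). A barcode was kept with at least 1000 UMIs and at most 10% of them from mitochondrial genes. It was counted as a neuron with at least 5 UMIs of Tubb3, Stmn2 and Elavl3 together and no Sox10 UMI, and as GABAergic with at least 2 UMIs of Gad1 and Gad2 together and no Slc17a6 UMI. The rule found 263 GABAergic neurons among 1948 neurons, 22086 kept barcodes and 27766 deposited barcodes. Levels of the 7 genes of the rule are therefore no result.

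The series holds 2 single-cell libraries of tdTomato-positive cells sorted from embryonic trunks and limbs, 1 for each genotype, with no replicate. SRSF2f/f/Myf5-Cre/tdT embryos carry 2 floxed Srsf2 alleles and their SRSF2f/w/Myf5-Cre/tdT littermates 1. Both carry Cre under the Myf5 promoter and the Rosa26-LSL-tdTomato reporter. Embryos were decapitated and eviscerated before dissociation. Why neurons passed the gate was not tested. The number of embryos per library is not given in the sources used here.

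Genotype could not be read firmly from the deposit. Library 1 (barcode suffix 1, 12498 barcodes, 128116615 UMIs) is titled SRSF2f/w/Myf5-Cre/tdT, and library 2 (suffix 2, 15268 barcodes, 156093779 UMIs) is titled SRSF2f/f/Myf5-Cre/tdT, but the names of their deposited summaries give the opposite. Srsf2, the targeted splicing factor gene (chr11:116849901-116853094, minus strand, GRCm38), went against the titles. In the kept barcodes it stood at 153 CPM (UMIs of a gene per 1000000 UMIs of the same set of cells) in library 1 and 219 CPM in library 2, a log2 ratio of library 2 over library 1 of 0.52 (0.49 to 0.54). In the GABAergic neurons it stood at 181 CPM (160 to 203) in library 1 and 232 CPM (203 to 265) in library 2, a log2 ratio of 0.36 (0.10 to 0.62). The ratio was 0.15 (-0.37 to 0.63) without 114 possible doublets, members with UMIs of other cell types or high depth, and 0.31 (-0.0013 to 0.61) at a neuron sum of 10, and both intervals hold 0. Cells with at least 2 UMIs of the myogenic genes Pax7, Myf5, Myod1 and Myog together were 1.42% of the kept barcodes of library 1 and 22.6% of those of library 2. The 3' tag counted here need not lie in the deleted stretch, so the level alone does not settle the label, and no measure here was used to assign one. The libraries are called library 1 and library 2 throughout, and no direction by genotype is drawn. All intervals are exact 95% intervals unless named otherwise, and they cover counting error only. With 1 library per genotype no test was possible, and fold changes between libraries have no replicate check. Across the libraries 74 barcode sequences were shared, of which 1 was a GABAergic neuron in library 1, 1 in library 2 and 0 in both.

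GABAergic neurons make the inhibitory transmitter GABA from glutamate with the decarboxylases Gad1 and Gad2, and load it into vesicles with the transporter Slc32a1. In the dorsal spinal cord most of them switch on Pax2, Lhx1 or Lhx5, and many also release glycine, which the transporter Slc6a5 takes up. Their excitatory neighbours instead use Tlx3 and Lmx1b and load glutamate with Slc17a6.

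The promoters of the GABA genes are shown because the transporter gene Slc32a1, which the rule did not use, was detected along with Gad1 and Gad2 and shares its start region with another gene of this cell set. The windows run from 250 bases before to 50 after the RefSeq start on GRCm38.p6, plus strand, at chr2:70561879-70562178 for Gad1, chr2:22622077-22622376 for Gad2 and chr2:158610508-158610807 for Slc32a1. Capitals mark matches to CANNTG, the letters that basic helix-loop-helix factors bind.
Gad1: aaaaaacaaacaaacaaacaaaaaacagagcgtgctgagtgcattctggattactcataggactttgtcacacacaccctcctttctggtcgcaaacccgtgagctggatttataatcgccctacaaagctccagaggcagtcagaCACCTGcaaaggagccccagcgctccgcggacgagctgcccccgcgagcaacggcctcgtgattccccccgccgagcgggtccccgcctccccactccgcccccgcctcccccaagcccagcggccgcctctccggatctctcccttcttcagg
Gad2: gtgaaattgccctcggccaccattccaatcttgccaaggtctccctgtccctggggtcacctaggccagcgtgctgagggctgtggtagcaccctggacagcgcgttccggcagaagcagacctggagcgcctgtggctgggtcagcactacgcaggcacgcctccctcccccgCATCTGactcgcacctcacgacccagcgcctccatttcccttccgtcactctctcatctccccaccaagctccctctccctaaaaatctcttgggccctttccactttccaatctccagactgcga
Slc32a1: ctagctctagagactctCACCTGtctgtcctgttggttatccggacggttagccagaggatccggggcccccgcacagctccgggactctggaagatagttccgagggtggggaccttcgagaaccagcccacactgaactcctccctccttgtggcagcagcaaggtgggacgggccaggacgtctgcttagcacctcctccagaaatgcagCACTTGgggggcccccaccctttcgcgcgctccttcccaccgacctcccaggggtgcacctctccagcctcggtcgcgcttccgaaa
CANNTG was found 1 time in Gad1, 1 time in Gad2 and 2 times in Slc32a1, and reads the same on both strands. Of 32851 promoters of the same length, 72.3% hold it. TAATTA, the core letters of many homeodomain factors and also the same on both strands, was in none of the 3 windows and in 5.29% of all promoters. A match is a description of letters and not a bound site. GC content was 60.0% for Gad1, 61.3% for Gad2 and 63.3% for Slc32a1, against a median of 52.7% over all promoters.

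GABAergic neurons were a larger share of library 1 than of library 2 inside the tdTomato gate, while the ratio of their shares of all neurons was not separable from 0 on the log2 scale by counting error alone. Library 1 held 168 of them and library 2 held 95. They were 1.69% (1.45 to 1.96) of the 9942 kept barcodes of library 1 and 0.782% (0.633 to 0.956) of the 12144 of library 2, a log2 ratio of library 2 over library 1 of -1.11 (-1.47 to -0.75). Of the neurons alone they were 14.3% (12.4 to 16.5) of 1171 in library 1 and 12.2% (10.0 to 14.7) of 777 in library 2, a log2 ratio of -0.23 (-0.57 to 0.11) whose interval holds 0. All neurons together were 11.8% and 6.40% of kept barcodes. Library 2 also held more myogenic cells, and with these left out of the denominator the GABAergic shares were 1.71% and 1.01%, a log2 ratio of -0.76 (-1.12 to -0.40). A share inside a sort gate cannot be told apart from a change in the other sorted cells.

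The members were shallower than the other neurons. They held a median of 6869 UMIs per cell (7022 in library 1, 6612 in library 2, range 1905 to 58135) and 2704 genes. Neurons with at least 2 Slc17a6 UMIs and no Gad1 or Gad2 UMI, called Slc17a6 neurons here, are used for comparison. They numbered 282 (196 in library 1, 86 in library 2) at a median of 13820 UMIs. Summed over cells, the members held 1559072 UMIs in library 1 and 942188 in library 2.

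The sum of Gad1 and Gad2 UMIs ran from 2 to 14 with a median of 3, and 142 members had Gad2 alone, 5 Gad1 alone and 116 both. The rule cuts through a gradient. Just inside it, the 108 members with a sum of 2 had a Slc32a1 UMI in 46.3% and a Pax2 UMI in 53.7%. Just outside it, the 151 neurons with a sum of 1 had them in 34.4% and 50.3%, while the 1029 neurons with neither Gad nor Slc17a6 UMIs had them in 3.50% and 5.25%. Members with a sum of 4 or more had them in 64.2% and 80.0%. Only 8 neurons passed the Gad threshold with Slc17a6 present, 5 at 1 UMI and 3 at 2 or more. The rule's neuron threshold left out 59 barcodes and its Sox10 threshold 2 that otherwise met it.

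The label was checked on genes outside the rule, and the transmitter genes among them marked the members. Slc32a1, the vesicular GABA and glycine transporter (chr2:158610767-158615748), had 171 UMIs in 55.4% of the members of library 1 and 83 UMIs in 54.7% of those of library 2. It was in 1.02% and 1.16% of the deeper Slc17a6 neurons and in 0.718% and 0.238% of the other kept barcodes, whose median depth was 10670 UMIs. With each cell thinned to 1000 UMIs it was in 12.2% of members and 0 of 282 Slc17a6 neurons. Slc6a5, the neuronal glycine transporter, had UMIs in 25.6% of members in library 1 and 32.6% in library 2, against 0 of 196 and 1 of 86 Slc17a6 neurons. Of the members, 43 had both Slc6a5 and Slc32a1, 102 Slc32a1 alone, 31 Slc6a5 alone and 87 neither. Abat, which breaks GABA down, was in 52.4% and 52.6%, against 36.2% and 29.1% of the Slc17a6 neurons. The motor neuron genes Mnx1 and Chat had a UMI in 0 of 263 members, which allows a share of up to 1.14% with a UMI and sets no limit on cells that express them at this depth, and Slc17a7 and Slc17a8, other vesicular glutamate transporters, were also at 0.

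Myf5 itself, whose promoter drives Cre, was in 0 of 168 members of library 1, which allows a share of up to 1.79% with a UMI, and in 2 of 95 of library 2. The shares in other kept barcodes were 0.502% and 8.38%. The reporter transcript was not analysed here, so the history of Cre activity in these cells was not tested.

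Against the Slc17a6 neurons, 267 of 8157 genes were more than 2-fold higher in the members, 3.27% of those compared, and 516 were more than 2-fold lower, 6.33%. The same cells were chosen on these counts, so this is a description. Many Slc17a6 neurons were sensory: leaving out those with a UMI of Isl1, Prph or Pou4f1 left 76. Against these 76 cells, 117 of 5025 genes (2.33%) were more than 2-fold higher and 63 (1.25%) more than 2-fold lower. The genes lowest in members were led by sensory neuron genes, among them the sodium channel genes Scn7a and Scn10a and the actin regulator gene Avil. Scn7a had 0 UMIs in members and 270 and 127 in the Slc17a6 neurons of library 1 and library 2, and others at that end were D130009I18Rik, Ppef1, Zdhhc22, Tmem72 and Isl2. That end of the list describes the comparison cells. The genes highest in members are given with both ratios.

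Outside the rule the highest were Pax8 at a log2 ratio of 7.93 (6.01 to 13.8), Gm14204 at 7.57 (5.65 to 13.5), Lamp5 at 7.43 (6.47 to 8.85), Slc6a5 at 7.25 (5.32 to 13.1), Slc32a1 at 6.94 (5.73 to 8.99), Pax2 at 6.92 (6.13 to 7.99) and Pnoc at 6.11 (5.40 to 7.04). Against the Slc17a6 neurons without sensory genes the ratios were 5.69 for Lamp5, 4.95 for Slc32a1, 5.80 for Pax2 and 5.33 for Pnoc. They were 6.68 for Pax8, 6.32 for Gm14204 and 6.00 for Slc6a5, which had no UMI in these 76 cells. Those values are set by the 0.5 UMIs added to each sum and are not exact ratios. Col10a1, a cartilage collagen, also ranked there at 6.81 (5.85 to 8.23), and 371 of its UMIs came from 1 member. Lamp5, a membrane protein of inhibitory neurons, had 377 UMIs in library 1 and 218 in library 2 with at most 10 in any member, and was in 76.5% of the members with Lhx1 UMIs and 75.8% of those without. The noncoding gene Gm14204 lies at chr2:158595472-158610723 on the minus strand, head to head with Slc32a1, with 43 bases between the annotated starts, both inside the Slc32a1 window printed above. It had 131 UMIs in 35.0% of members and 1 UMI in the Slc17a6 neurons. Within the members it was in 36.6% of those with Slc32a1 and 33.1% of those without, so the genes marked the same cell set without pairing cell by cell at this depth.

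The transcription factors included those listed for dorsal inhibitory neurons. Of the 11 genes listed for the dI4 and dILA classes of the dorsal spinal cord, 9 had enough UMIs to be compared. All 9 were more than 2-fold higher in members, against 3.27% of all genes, with a median log2 ratio of 4.93 against 0.05 over all genes. The list held 1996 and 931 UMIs in members of library 1 and library 2, against 191 and 64 in the Slc17a6 neurons. Its genes thus reached the minimum of 100 UMIs largely through the members, so the count of 9 is a description and no support for the label. Against the 76 Slc17a6 neurons without sensory genes the count was also 9 of 9, against 2.33% of all genes, with a median of 3.61. Those cells held 85 and 18 UMIs of the list in library 1 and library 2, so the same limit applies. Pax2 (chr19:44756045-44837871) had 400 UMIs in 66.1% of members in library 1 and 240 in 71.6% in library 2, and was in 2.55% and 2.33% of the Slc17a6 neurons. Lhx5 was in 69.0% and 64.2%, Lhx1 in 41.1% and 31.6%, and Pax8, a relative of Pax2, in 41.1% and 34.7%. Tfap2b was in 54.8% and 42.1%, Gbx1 in 23.2% and 24.2% and Gbx2 in 26.2% and 20.0%. Lbx1, which marks dorsal neurons of both transmitter types, was less selective, at 47.6% and 48.4% of members against 18.9% and 23.3% of Slc17a6 neurons. Thinned to 1000 UMIs, Pax2 was in 25.9% of members and 0 of 282 Slc17a6 neurons, Lhx1 in 20.5% and 2.48%, and Lbx1 in 11.4% and 4.26%.

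Most factors listed for other neuron classes were in few members, with Bhlhe22 and Ebf1 among the exceptions. The excitatory regulator Tlx3 was in 5.95% of members in library 1 and 5.26% in library 2, against 78.1% and 72.1% of Slc17a6 neurons, and Prrxl1 in 10.1% and 7.37% against 65.3% and 54.7%. Of 13 excitatory factors 7 could be compared, of which 5 were more than 2-fold lower and 1, Phox2a, higher, with a median log2 ratio of -2.84, where 6.33% of all genes were lower and 3.27% higher. Against the Slc17a6 neurons without sensory genes 4 could be compared, of which 2 were lower and 1, again Phox2a, higher, with a median of -1.05. Of the 100 Phox2a UMIs in members, 95 came from 12 cells. Isl1 was in 11 of these 12 and Prph in 8. Slc17a6 neurons with either gene had been left out of the second comparison, while such members were kept. Its Phox2a call depends on that choice and is no separate result. Ebf1 was lower in both comparisons, at -1.42 and -1.18, but still in 64.3% of members in library 1 and 67.4% in library 2. In the list for the dI6 and V0 classes Dmrt3, Evx1 and Evx2 had a UMI in 0 of 263 members and Wt1 in 1, while Bhlhe22, the only one of its 6 genes that could be compared, was in 32.7% of members in library 1 and 34.7% in library 2, at a log2 ratio of 2.89 (2.53 to 3.27) over the Slc17a6 neurons and 1.89 (1.29 to 2.62) over those without sensory genes. Of the 7 genes listed for the V1 class, at least 1 UMI was in 51.8% of members in library 1 and 48.4% in library 2, against 71.4% and 62.8% of the deeper Slc17a6 neurons. Of the 4 that could be compared 0 were more than 2-fold higher and 1, Foxd3, lower, with a median log2 ratio of 0.52, and Foxp1, its most abundant gene, stood at 0.45 (0.23 to 0.67). En1, the defining gene of that class, was in 4.17% and 4.21%, below its share in the other kept barcodes, 7.0% and 14.1%. The list of forebrain and midbrain factors had a UMI in 2.98% of members in library 1 and 7.37% in library 2, against 10.1% of the other kept barcodes in both. Otx2, Dlx1 and Nkx2-1 of that list had 0 UMIs in members, while Emx2 was in 5 members and Dlx5 in 4. Of the genes of the GABA and glycine receptors and their scaffold 8 could be compared, of which 0 were more than 2-fold higher and 2 lower, with a median log2 ratio of 0.02, and against the Slc17a6 neurons without sensory genes 0 of 5 were higher and 0 lower. With 3.27% of all genes higher, 0 of 8 is near the background, while the 2 of 8 that were lower stand beside 6.33% of all genes.

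**Figure D1:**
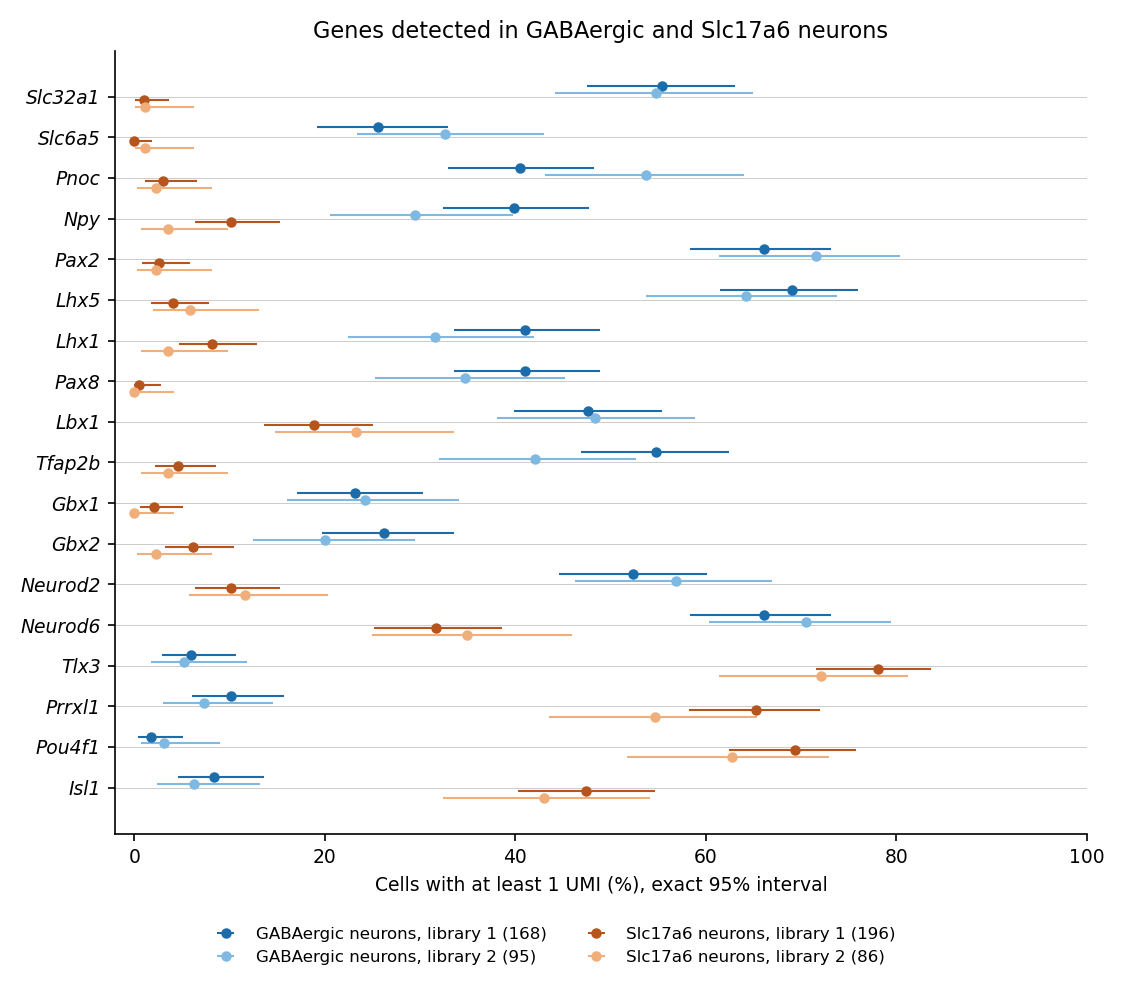
Share of cells with at least 1 UMI (percent, x axis) for 18 genes in the GABAergic and Slc17a6 neurons of each library; points are shares and bars exact 95% intervals. The members of both libraries sit close together and far from the Slc17a6 neurons for Slc32a1, Pax2 and Lhx5, and on the other side of them for Tlx3 and Pou4f1.

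Hox genes gave the members a trunk profile, with the highest sums in paralog groups 8 and 9. Hox genes are expressed in overlapping domains along the body axis, with higher paralog groups lying further to the tail. Group 8 summed to 890 CPM (853 to 928) and group 9 to 945 CPM (907 to 984), while group 1 summed to 6.40 CPM (3.66 to 10.4) and group 13 to 88.0 CPM (76.7 to 100.4). Hoxb8 alone had 1206 UMIs in library 1 and 671 in library 2, a log2 ratio of library 2 over library 1 of -0.12 (-0.26 to 0.02). Of 39 Hox genes 25 could be compared with the Slc17a6 neurons, and 13 were more than 2-fold higher and 0 lower, against 3.27% and 6.33% of all genes, with a median log2 ratio of 1.09. Against the Slc17a6 neurons without sensory genes 1 of 23 was more than 2-fold higher, near the background of 2.33%, and the median was 0.02. Those cells also peaked at groups 8 and 9, at 587 and 602 CPM. Between libraries 0 of 25 Hox genes were more than 2-fold apart in the members, near the background of 1.29% of all genes higher and 1.43% lower.

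**Figure D2:**
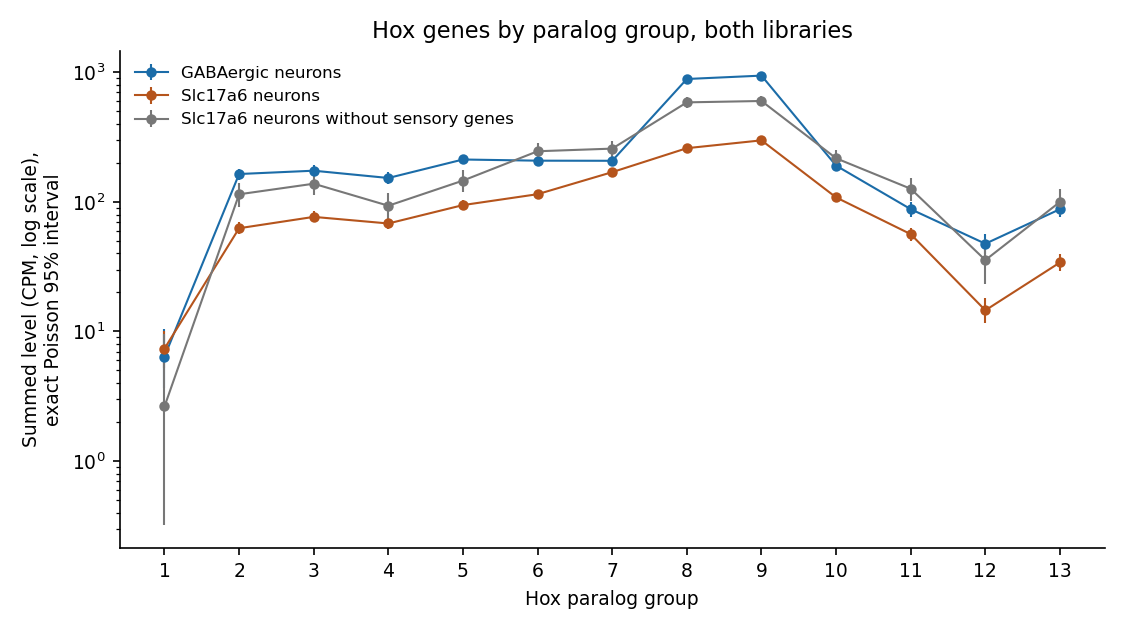
Summed level of the Hox genes (CPM, log scale, y axis) by paralog group (x axis) in GABAergic neurons, Slc17a6 neurons and the Slc17a6 neurons without sensory genes, both libraries together; bars are exact Poisson 95% intervals. All 3 curves peak at groups 8 and 9, and the members' 945 CPM at group 9 lies above the 299 and 602 CPM of the others.

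The members fell into a large set with Pax2, Lhx1 or Lhx5 and a small set with sympathetic factors. Lbx1, which marks dorsal neurons, was in 54.2% of members with Pax2, 50.3% of those with Lhx5 and 47.5% of those with Lhx1. A dorsal origin of the whole large set was not tested. At least 1 UMI of Pax2, Lhx1 or Lhx5 was in 231 of 263 members, 87.8% (83.3 to 91.5), at 87.5% in library 1 and 88.4% in library 2. At least 2 UMIs of Phox2a, a factor of autonomic neurons, were in 12 members, 11 of library 1 and 1 of library 2, and 2 of these also had Pax2, Lhx1 or Lhx5. A further 22 had neither. The sets were drawn after the values had been seen and are described without a test.

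In these 12 Phox2a members, Gad2 was present in 12 of 12, with 35 UMIs, but Slc32a1 in 2 and Slc6a5 in 0. The 2 cells with Slc32a1 were those that also had Pax2, Lhx1 or Lhx5. Dbh, which makes noradrenaline, was in 9 of 12 and Th, the preceding tyrosine hydroxylase, in 5. They were in 0 and 2 of the 229 members with Pax2, Lhx1 or Lhx5 and under 2 Phox2a UMIs. Isl1 was in 11 of 12, Prph in 8, Gata2 in 11 and Gata3 in 9. The label GABAergic rests on Gad2 in these cells, and the low count of Slc32a1 goes against it. They carried the peptide genes Npy in 11 of 12 and Cartpt in 8. The cycle genes Mki67 and Top2a were in 7 and 9 of 12, against 10.9% and 17.0% of the 229. Their median depth was 12420 UMIs against 6581, and the part of depth in these shares was not tested.

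**Figure D3:**
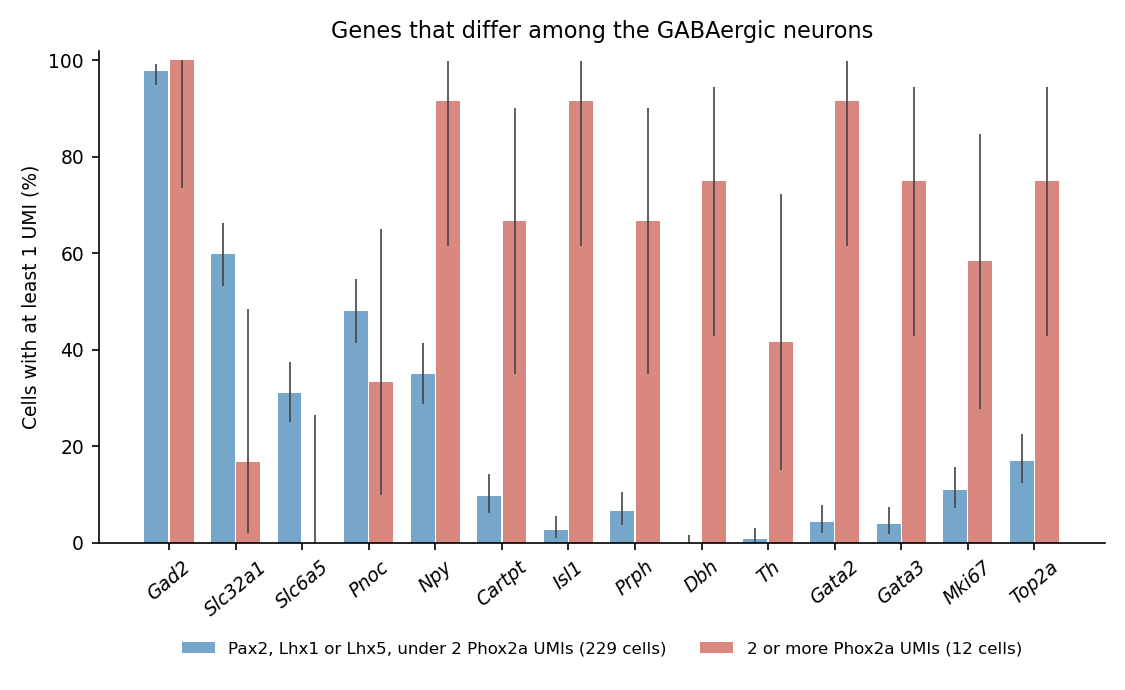
Share of cells with at least 1 UMI (percent, y axis) for 14 genes in the 229 members with Pax2, Lhx1 or Lhx5 and under 2 Phox2a UMIs and in the 12 with 2 or more; bars carry exact 95% intervals. Slc32a1 stands at 59.8% in the 229 and 16.7% in the 12, and Dbh at 0 and in 9 of 12.

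Within the other 251 members a second division ran between Lhx1 and a group of factors that includes Nfib and Neurod2. Spinal neurons born early and late are known to differ in such factors, with Nfib and Neurod2 among the late ones. The birth time of the members was not tested. Lhx1 was detected in 98 of these members and not in 153, at median depths of 6114 and 7082 UMIs. With Lhx1, the factor Gbx2 was in 49.0% (38.7 to 59.3), and without it in 9.80% (5.59 to 15.7). The reverse held for Nfib at 39.8% with Lhx1 and 88.9% without, Neurod2 at 27.6% and 73.9%, Neurod6 at 53.1% and 81.0%, and Bhlhe22 at 14.3% and 47.1%. Pax2, at 68.4% and 71.9%, and Slc32a1, at 59.2% and 55.6%, did not separate the sets. Slc6a5 was in 20.6% with Lhx1 and 32.6% without in library 1, and in 43.3% and 28.1% in library 2, so its order differed between libraries.

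The peptide genes Npy, Sst and Pnoc followed this division. Npy, the neuropeptide Y gene (chr6:49822710-49829507), was in 57.1% (46.7 to 67.1) of members with Lhx1 and 18.3% (12.5 to 25.4) of those without. Sst, the somatostatin gene, was in 35.7% and 10.5%. Pnoc, which encodes the precursor of nociceptin, went the other way, at 25.5% and 58.8%. Each of these orders was the same in both libraries: Npy was in 40 of 68 and 16 of 89 in library 1 and in 16 of 30 and 12 of 64 in library 2, and Pnoc in 22.1% and 56.2% in library 1 and in 33.3% and 62.5% in library 2. Thinned to 1000 UMIs, Npy was in 34.7% with Lhx1 and 7.19% without, Pnoc in 9.18% and 26.8%, and Nfib in 11.2% and 56.9%, in the same orders as before thinning. Cartpt did not keep 1 order, at 30.3 CPM with Lhx1 and 86.8 CPM without in library 1, and 96.7 and 28.0 CPM in library 2, where 5 of the 95 members had a Cartpt UMI. The division was not complete, as 52 members had Lhx1 together with Nfib or Neurod2, 46 Lhx1 alone, 142 Nfib or Neurod2 alone and 11 none of them.

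**Figure D4:**
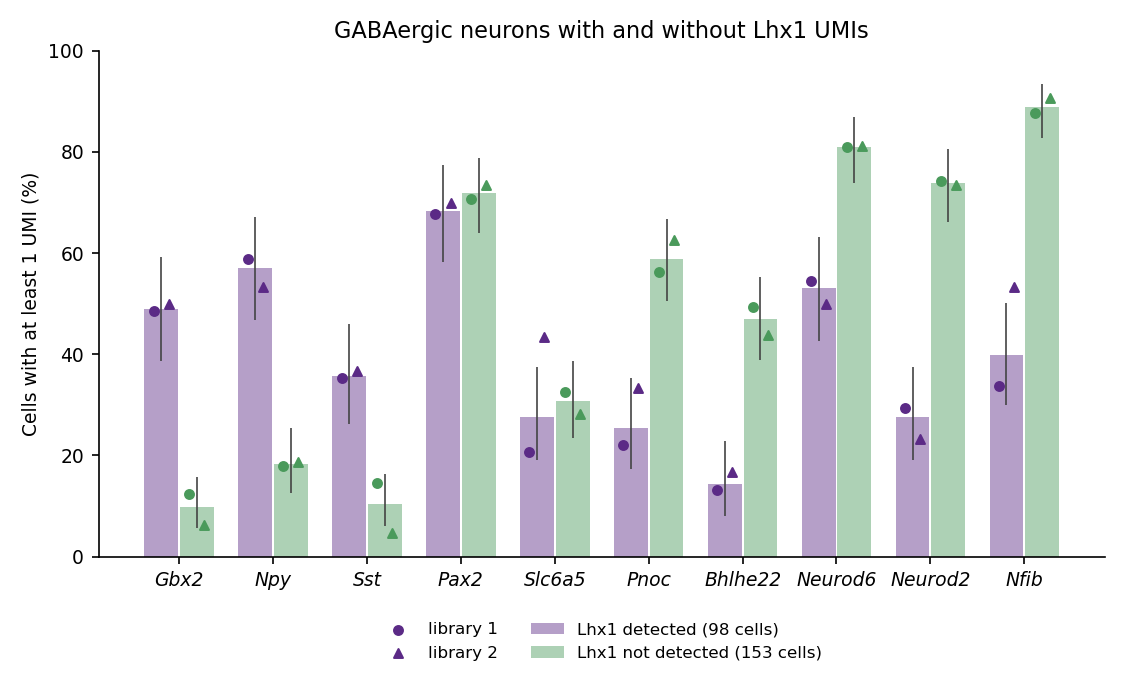
Share of cells with at least 1 UMI (percent, y axis) for 10 genes in members with (98) and without (153) Lhx1 UMIs, Phox2a members left out; bars are both libraries with exact 95% intervals, circles library 1 and triangles library 2. Gbx2, Npy and Sst are more often detected with Lhx1, Nfib, Neurod2 and Pnoc more often without it, and Pax2 stands near 70% in both.

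The peptide genes differed in how their UMIs were spread over cells. Npy had 1105 UMIs in 95 members, with a median of 6 and at most 71 in a cell. Sst had 323 UMIs in 51 members, with a median of 2, and 70.0% of them came from 10 cells. Pnoc was spread more evenly, with 462 UMIs in 119 members, a median of 3 and 23.8% in the 10 highest. Of Npy, Sst and Pnoc, 64 members had none, 136 had 1, 60 had 2 and 3 had all 3. Gal, the galanin gene of many Slc17a6 neurons, had only 7 UMIs in members of library 1 and 28 in those of library 2, against 2690 and 960 in Slc17a6 neurons.

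Between libraries, the peptide gene Npy and the factor Lhx1 were lower in members of library 2 and the Nfi factors higher, by counting intervals alone. Of 6498 genes with at least 50 UMIs in members, 84 were more than 2-fold higher in library 2, 1.29% of those compared, and 93 more than 2-fold lower, 1.43%, with a median log2 ratio of -0.02. Npy stood at 578 CPM in library 1 and 217 CPM in library 2, a log2 ratio of -1.41 (-1.64 to -1.20). Without the Phox2a members it was -1.41 (-1.65 to -1.19). In members with Lhx1 the levels were 1201 and 453 CPM, at shares of cells with Npy of 58.8% and 53.3%. In members without Lhx1 the log2 ratio was -0.13 (-0.59 to 0.32). Npy was also lower in library 2 in the other neurons, at -1.20 (-1.34 to -1.08), and in the other kept barcodes, at -1.07 (-1.19 to -0.95).

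Sst stood at 165 CPM and 70.1 CPM, a log2 ratio of -1.23 (-1.65 to -0.84), and at -0.83 without the member holding 63 of its UMIs. Lhx1 was at 332 CPM and 178 CPM, -0.90 (-1.16 to -0.64), and in the other neurons at -1.35. The Nfi factors went the other way. Nfia stood at 63.5 CPM in library 1 and 169 CPM in library 2, a log2 ratio of 1.41 (1.04 to 1.79). Nfix was at 0.94 (0.63 to 1.25) and Nfib at 0.65 (0.52 to 0.78). In the other neurons these ratios were 0.57 for Nfia, 0.76 for Nfix and 0.77 for Nfib. The other kept barcodes went in the same directions, at 0.52 for Nfia, 0.35 for Nfix, 0.49 for Nfib, -1.91 for Lhx1 and -1.64 for Sst. Neurod6 and Neurod2, grouped with Nfib above, did not go with the Nfi factors in members. Neurod6 was at -0.36 (-0.57 to -0.15) and Neurod2 at -0.24 (-0.51 to 0.02). Without the Phox2a members they were at -0.46 and -0.33 (-0.61 to -0.07). Neurod6 was at 0.13 (-0.38 to 0.61) in members with Lhx1 and -0.76 in those without. In the other neurons both were above 0, Neurod6 at 0.22 and Neurod2 at 0.39. Pax2, at -0.01 (-0.25 to 0.22), Lbx1, at -0.01 (-0.42 to 0.38), and Pnoc, at 0.21 (-0.07 to 0.48), had intervals that hold 0. For Pnoc the pooled value joins opposite directions, at 1.38 (0.69 to 2.09) in members with Lhx1 and -0.32 (-0.63 to -0.01) in those without. Members with Lhx1 were 40.5% of the members of library 1 and 31.6% of those of library 2. Within the sets, Nfib was at a log2 ratio of 1.22 (0.85 to 1.59) in members with Lhx1 and 0.29 (0.15 to 0.43) in those without. Nfix was at 1.41 (0.69 to 2.15) and 0.52 (0.18 to 0.88), and Nfia at 1.60 (0.83 to 2.40) and 1.17 (0.73 to 1.63). Sst was at -0.92 (-1.38 to -0.50) and -1.58 (-2.73 to -0.64). For these 4 genes the direction was thus the same in both sets as in all members, and the differences between the sets were not tested.

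**Figure D5:**
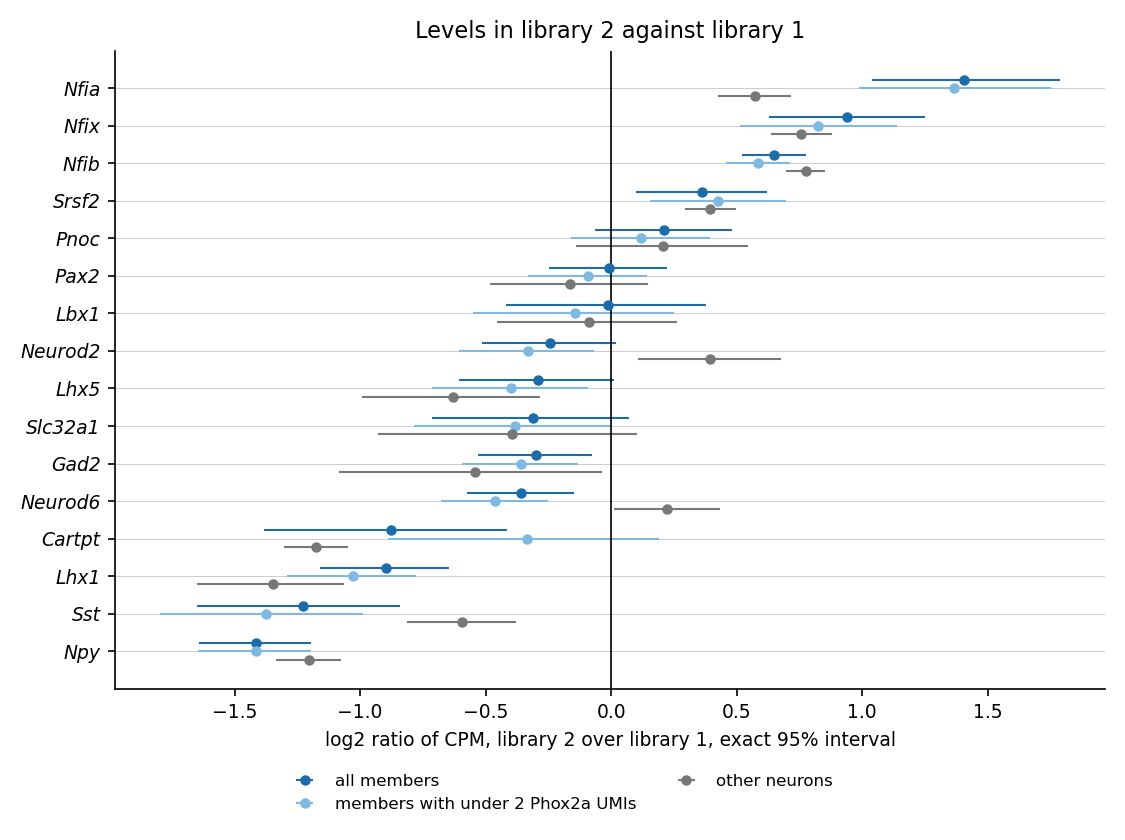
Log2 ratio of CPM, library 2 over library 1 (x axis), for 16 genes in all 263 members, in the 251 with under 2 Phox2a UMIs and in the other neurons; bars are exact 95% intervals for counting error only. Npy, Sst and Lhx1 lie left of 0 and the Nfi genes right of it in all 3 groups, while Cartpt stands at -0.88 in all members and -0.33 without the Phox2a members.

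By list, 0 of the 9 dorsal factors compared and 0 of 10 SR splicing factors were more than 2-fold apart between libraries in members, which is near the background of 1.29% of all genes higher and 1.43% lower. Of 7 peptide and interneuron genes 0 were higher and 4 lower, and of 9 birth-time factors 1 was higher and 0 lower. Of the factors of V2b and cerebrospinal fluid-contacting neurons both genes compared were lower in library 2, Gata2 at -1.87 (-3.23 to -0.86) and Gata3 at -1.09 (-2.25 to -0.15), and Gata2 was at -0.56 (-2.14 to 0.75) without the 12 Phox2a members, 11 of which were in library 1. Of 3 excitatory factors 1, Phox2a, was lower and 0 higher. Of 12 stress genes 0 were higher and 1 lower. The cycle gene Top2a was at 0.89 (0.59 to 1.19) in all members and 1.67 (1.29 to 2.06) in those with under 2 Phox2a UMIs. It was at 0.39 in the other neurons and 0.95 in the other kept barcodes. At least 3 UMIs of Mki67 and Top2a together were in 14 members of library 1 and 11 of library 2.

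Most of the genes furthest apart between libraries are known from other cell types. Of the 20 genes at the ends of that list, 18 had at least 50% of their UMIs in 1 member. Without the member with the most UMIs of each gene, 16 of the 20 were still more than 2-fold apart in the same direction, and Sncg, Sprr1b and Col10a1 turned sign. Among the 20, towards library 2, were muscle genes (Tnnt2, Ttn, Actc1, Mylpf, Neb and Tnnt1), Car3, the neuronal gene Sncg and the bone genes Ibsp and Ifitm5, and towards library 1 mast cell genes (Cma1, Cpa3 and Tpsb2), epidermal genes (Krtdap, Sprr1a and Sprr1b), Col10a1, Ctla2a and Ddit4l. Ibsp had 1083 UMIs in library 2, of which 669 came from 1 member, and Cma1 had 190 in library 1, of which 166 came from 1. Over all 177 genes more than 2-fold apart, 96 stayed so in the same direction without that member.

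Markers of muscle, of mesenchyme and of endothelial, immune and epidermal cells stood in the same order between libraries in members as in the other kept barcodes, while erythroid markers were close to even in members. The 8 skeletal muscle markers, led by Actc1, summed to 14.8 CPM in members of library 1 and 377 CPM in library 2, where 1 member held 220 of 355 UMIs. In the other kept barcodes they summed to 99.4 and 808 CPM. The 10 endothelial, immune and epidermal markers, led by Cma1, summed to 332 and 52.0 CPM in members and to 1795 and 229 CPM in the other kept barcodes. In library 1, 3 members with at least 50 such UMIs held 81.6% of them, and in library 2, 1 member held 41 of 49. The 7 mesenchyme and cartilage markers, led by Col2a1, summed to 2117 and 3845 CPM in members and to 7054 and 8396 CPM in the other kept barcodes, and 28 members with at least 50 such UMIs held 85.3% of them. The 6 erythroid markers were at 130 and 124 CPM in members and at 14030 and 8410 CPM in the other kept barcodes. By fixed limits on such UMIs and on depth, 114 of 263 members were possible doublets, 62 in library 1 and 52 in library 2. The part of doublets and free RNA in the library ratios was not tested.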

How the data were processed

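The authors deposited raw UMI counts for each gene and barcode, made with the 10x 3' v3.1 chemistry, Cell Ranger (5.0.0 in the matrix header; 3.1.0 in the submitters' processing notes) and mm10, and aggregated after down-sampling reads. Before aggregation the summaries list 575393483 reads (saturation 45.9%) for library 1 and 571426356 (39.5%) for library 2. Barcode suffixes were matched to samples by the number of cells in each sample's summary.

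UMIs were summed per library and cell set and scaled to CPM. Ratios of sums, with 0.5 UMIs added to each, carry exact conditional binomial intervals, levels exact Poisson intervals and shares exact Clopper-Pearson intervals (95%), while intervals of ratios of shares are log intervals. A share at 0 is limited by 3 cells. Genes were compared with at least 100 UMIs between cell groups and 50 between libraries. Thinning drew 1000 UMIs per cell without replacement. Named genes are those of the lists, Srsf2, Myf5 and the 10 at each end of both comparisons. Members, lists and tests were chosen with earlier results of these data known, and the Lhx1 and Phox2a sets after their values were seen. Some genes that this rule names are not reported here. Possible doublets had at least 5 UMIs of the muscle, mesenchyme or endothelial, immune and epidermal markers or over 3 times the median depth; they were kept. Gene spans are from GENCODE vM21 (99.6% of 32285 IDs matched), promoters from RefSeq. Python 3.11.15, NumPy 2.4.6, SciPy 1.17.1, pandas 2.3.3 and matplotlib 3.10.9 were used. On simulated counts 95.7% of intervals over 8157 genes (members over Slc17a6 neurons) and 96.0% over 6498 genes (between libraries) held the true ratio.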

Additional observations from a re-analysis of the deposited data

Results flagged for a closer look

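For 10 named genes the ratio of members over Slc17a6 neurons pointed in opposite directions in the libraries, with both counting intervals off 0. The difference between the libraries was not tested. Among matrix and bone genes the log2 ratio was -0.39 in library 1 and 0.40 in library 2 for Col1a1, -0.36 and 0.16 for Col1a2, -0.11 and 0.29 for Col2a1, 1.03 and -1.21 for Dcn, -3.66 and 2.19 for Ifitm5 and -2.89 and 2.79 for Ibsp. For the endothelial gene Cdh5 it was 0.64 and -3.56. Among neuronal and early-response genes it was -0.60 and 0.48 for Nfia, 0.97 and -0.75 for Cntnap2 and -0.30 and 0.38 for Fos.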

How the results depend on the processing

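No paired analysis was possible because each genotype has 1 library. Of 134 values under 17 alternatives, 2 of them chosen after seeing the data, 107 moved by less than their interval or 1.5 times, 27 moved further and 0 turned sign. The share of GABAergic neurons was 0.569% in library 2 at a mitochondrial limit of 5%. In library 1 and library 2 it was 1.31% and 0.593% at a neuron sum of 10, 2.72% and 1.19% at a Gad sum of 1, and 0.634% and 0.264% at a Gad sum of 4. With possible doublets left out of the members but not of the kept barcodes it was 1.07% and 0.354%. It was 14.3% and 12.2% of neurons, and 1.01% in library 2 without myogenic cells. The log2 ratio of that share was -1.59 with possible doublets left out of the members only and -0.23 over neurons, in place of -1.11. Possible doublets were 36.9% of members in library 1 and 54.7% in library 2, so -1.59 is no ratio of shares among doublet-free cells. Slc32a1 was in 47.6% and Pax2 in 61.6% of members at a Gad sum of 1, and in 64.2% and 80.0% at a sum of 4. Genes more than 2-fold apart between libraries numbered 106 at a Gad sum of 4 and 83 without possible doublets, in place of 177. Genes lower than in Slc17a6 neurons numbered 903 with possible doublets left out of the members but not of the 282 Slc17a6 neurons, in place of 516. Genes higher numbered 446 at a minimum of 50 UMIs and 150 at 200, in place of 267. Against Slc17a6 neurons without sensory genes, 117 were higher and 63 lower, and the log2 ratios were 5.80 for Pax2 and 4.95 for Slc32a1. Depth limits single genes: Gad1 had a median of 1 UMI in the members that carried it, so cells with 1 Gad UMI were left out. Library, genotype, embryo and run cannot be told apart.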

Other observations

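Some genes of the members fall outside the comparisons above. Nrxn3, a presynaptic adhesion gene, had 1307 UMIs in 236 members, with 11.7% of them in the 10 highest. It stood 2.84 (2.68 to 3.01) above the Slc17a6 neurons on the log2 scale and 4.14 (3.57 to 4.85) above those without sensory genes. Slc38a1, an amino acid transporter that supplies glutamine, was in 73.0% of members, and the GABA-B receptor subunit gene Gabbr1 in 55.1%. Of the peptide genes that mark adult dorsal interneurons, Penk was in 9.51% and Pdyn in 1.90% of members. Rorb, a factor of dorsal horn neurons, was in 10.3%. Nos1 was in 2 members and Calb1 in 0.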
